A study of Mus musculus with 12 samples.

Results

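The aminoacyl-tRNA synthetases are the enzymes that load each transfer RNA with its amino acid. The genes described here are those for the cytosolic enzymes, 20 symbols, and for the mitochondrial enzymes, 16 symbols, whose names end in 2. A gene was taken where the array's annotation gave a probe set that symbol and no other, and its brightest probe set stood for it. By that rule 34 of the 36 genes were measured, 18 cytosolic and 16 mitochondrial, among 22180 named genes in all. Aars shared its probe set with Exosc6, and Dars matched none, so neither was analysed here.

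A synthetase joins an amino acid to the transfer RNA that reads its codons, and every round of translation draws on the product. Cytosolic and mitochondrial protein synthesis use largely separate enzymes, all encoded in the nucleus, although Gars and Kars each supply both compartments. Several cytosolic synthetases are bound together in a multisynthetase complex held by the scaffold proteins Aimp1, Aimp2 and Eef1e1, and the others work free of it. When amino acids run short or proteins misfold, eIF2 alpha is phosphorylated and the transcription factor ATF4 is made, and many cytosolic synthetase genes are known ATF4 targets, along with genes of amino acid synthesis and transport.

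RNA was measured on 12 Affymetrix arrays of MLE12 cells, lung epithelial cells of mouse origin that express the SV40 large T antigen, in all groups alike. In every group, cells at 60% confluency were exposed for 12 hours to lentivirus with a pLKO.1 shRNA construct, made in HEK-293T cells, and harvested after a further 65 hours. The 4 groups of 3 arrays were shRNA against the long noncoding RNA NANCI, the scrambled shRNA run with it, shRNA against LL34, and the scrambled shRNA run with that. The labels name no second shRNA per target, and they call the arrays biological replicates without saying whether infections were separate, so p-values measure only the spread between these arrays.

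Sfta3-ps, for which Nanci is a listed synonym, fell by 2.91 on the log2 scale after NANCI shRNA (limma adjusted p = 1.72e-07), in the direction of its label. It also fell by 0.67 after LL34 shRNA (limma adjusted p = 0.00284), with separate arrays, while the RNA targeted in the LL34 group was not analysed here. The array medians lay between 6.84 and 6.88 in the NANCI set and between 6.54 and 6.62 in the LL34 set, as if each set of 6 had been normalized on its own. The LL34 scrambled arrays stood furthest apart from each other, with replicate 3 at a mean correlation of 0.988 with its group. In the LL34 shRNA group, Farsb, Iars, Lars and Nars2 had exactly equal values on a pair of arrays, so their spread there may be too small. Of all 41345 probe sets, 3590 had such ties in the LL34 shRNA group and 2712 in its scrambled group. In the NANCI shRNA group and its scrambled group 70 and 43 had them. The source of the ties was not tested. Signals of different probe sets have no common scale, and levels are not compared between genes.

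Most cytosolic synthetase RNAs were lower after NANCI shRNA and higher after LL34 shRNA, each against its own scrambled group, and 8 of the 16 mitochondrial ones passed the test in neither. After NANCI shRNA 10 of the 18 cytosolic genes fell and 4 rose at a limma adjusted p under 0.05, with a median change of -0.29. Among all named genes 26.8% were called, 13.6% lower and 13.2% higher, and the median change was 0.0042. After LL34 shRNA 11 of the 18 cytosolic genes rose and 1 fell, with a median of 0.49, against 20% of all named genes called, 9.77% higher and 10.3% lower, and a median of -0.02. The synthetases are well expressed, and among the 12528 named genes at or above the median level 22.7% were called lower after NANCI shRNA and 16.7% higher after LL34 shRNA. By array, 10 cytosolic genes lay wholly below their scrambled group after NANCI shRNA and 5 wholly above, where 20% and 20.5% of all named genes did. After LL34 shRNA 14 lay wholly above and 3 wholly below, where 18.1% and 17.2% of all named genes did. Of the 16 mitochondrial genes, 4 fell and 1 rose after NANCI shRNA (median -0.02), and 4 rose and 1 fell after LL34 shRNA (median 0.07). In RNA from whole cultures, fewer cells of a type and less RNA per cell cannot be told apart.

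**Figure D1:**
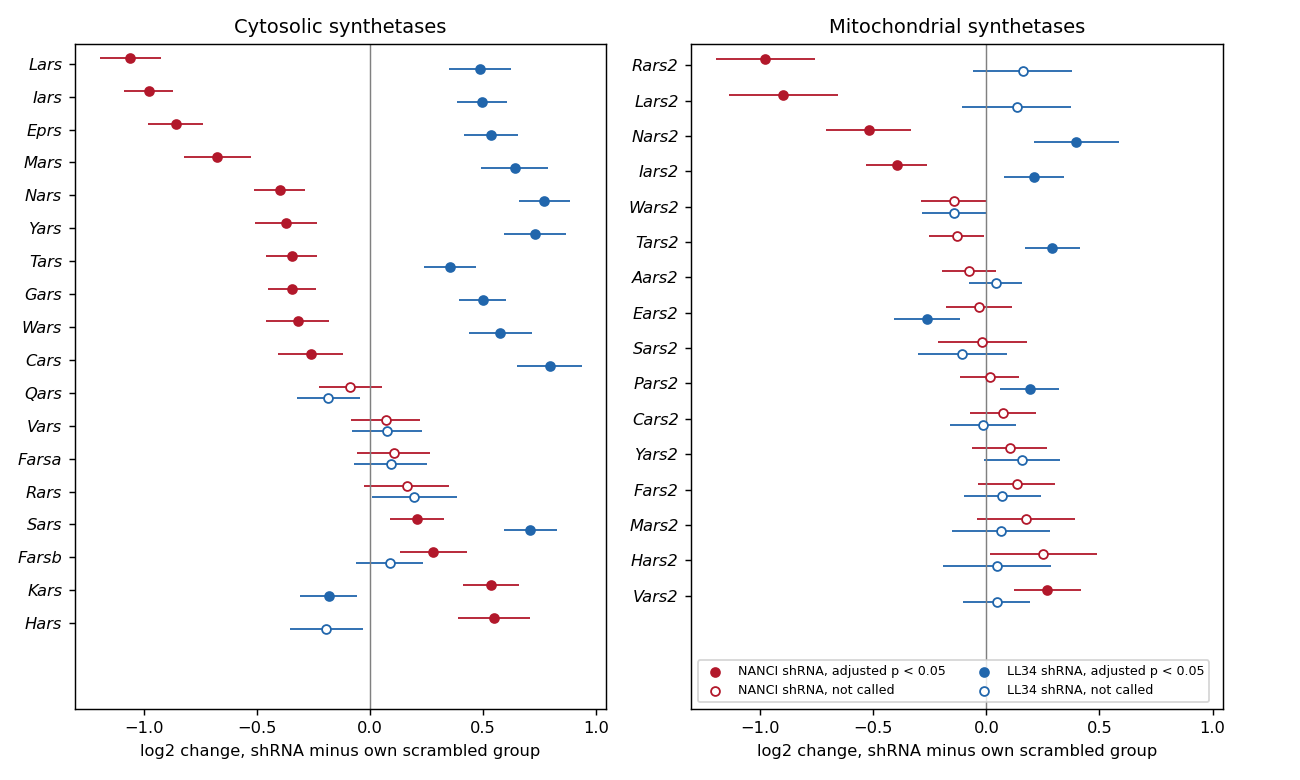
Log2 change of each synthetase RNA (x axis) by gene (y axis), NANCI shRNA in red and LL34 shRNA in blue, each minus the mean of its own 3 scrambled arrays, with 95% intervals of the limma fit. Filled points passed the adjusted p threshold of 0.05, and in the left panel 10 genes have a filled red point left of 0 and a filled blue point right of 0.

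The same 10 cytosolic genes that fell after NANCI shRNA rose after LL34 shRNA: Cars, Eprs, Gars, Iars, Lars, Mars, Nars, Tars, Wars and Yars. Among all named genes 2.9% had that pair of calls. Their changes ran from -1.06 to -0.26 after NANCI shRNA and from 0.35 to 0.80 after LL34 shRNA. No array of an shRNA group overlapped its scrambled group for any of them. They were picked by calls on these same arrays, so that separation was largely fixed by the choice. After NANCI shRNA 20% of all named genes lay wholly below, and after LL34 shRNA 18.1% lay wholly above. The symbols follow the single-letter code of the amino acid, so that Wars charges tryptophan, Tars threonine and Yars tyrosine.

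ATF4 with its C/EBP partners is known to bind an element of the form TGATGNAA. That motif and its reverse complement TTNCATCA were searched, on both strands at once, in 300 bases around each gene's start as given by RefSeq for assembly GRCm38.p6, 250 before the start and 50 after it. A promoter was at hand for 25 of the 34 genes, with Cars, Hars, Hars2, Lars, Nars, Pars2, Rars, Vars and Wars unmatched. Among the 10 genes with opposite changes, 4 of the 6 with a promoter held the motif, Gars, Iars, Tars and Yars. It was found in 0 of 5 other cytosolic promoters and in 0 of 14 mitochondrial ones, and 3.97% of all 32851 promoters of that length held it. A match is a description of letters and not a binding site, and a part of ATF4 in these changes was not tested. The windows of 30 bases are given 5′ to 3′ on the gene's strand, with the match in capitals.
Gars, chr6:55037960-55037989, plus strand: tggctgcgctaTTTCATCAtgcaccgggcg
Iars, chr13:49682126-49682155, plus strand: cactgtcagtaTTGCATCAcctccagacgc
Tars, chr15:11399655-11399684, minus strand: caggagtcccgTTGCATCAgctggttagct
Yars, chr4:129189895-129189924, plus strand: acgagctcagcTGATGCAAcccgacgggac
Tars and Iars hold the same 8 letters and Yars holds their reverse complement. The match lies before the start in Gars (-30 to -23) and Tars (-15 to -8), and just after it in Iars (8 to 15) and Yars (4 to 11), counted from the first transcribed base. For contrast, the 100 bases before the start, are given for Eprs, which had the same opposite changes, and for Kars, which did not.
Eprs, chr1:185362944-185363043, plus strand: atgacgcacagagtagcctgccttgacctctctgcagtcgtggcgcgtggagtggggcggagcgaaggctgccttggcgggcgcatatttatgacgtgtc
Kars, chr8:112011355-112011454, minus strand: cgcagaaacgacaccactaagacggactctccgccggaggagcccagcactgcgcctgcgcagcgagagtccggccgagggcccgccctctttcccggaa
Neither holds the motif in this window or in the rest of its 300 bases.

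Among the synthetases of the multisynthetase complex, 7 were measured, and after NANCI shRNA Eprs, Iars, Lars and Mars fell while Kars rose. Lars, the leucyl-tRNA synthetase, which is also a leucine sensor for mTORC1, read 11.31, 11.23 and 11.37 on the scrambled arrays and 10.19, 10.25 and 10.28 on the NANCI shRNA arrays. The groups were far apart, and the change was -1.06 (SE 0.0616, limma adjusted p = 1.00e-06), which left 48.0% of the scrambled signal. Iars, for isoleucine, read 12.60, 12.53 and 12.55 against 11.53, 11.63 and 11.57. Every NANCI shRNA array was below every scrambled array, with a change of -0.98 (SE 0.0496, limma adjusted p = 5.15e-07). Eprs, a single protein that charges both glutamate and proline, read 11.83, 11.76 and 11.83 against 10.87, 11.01 and 10.96. Its change was -0.86 (SE 0.0549, limma adjusted p = 1.73e-06), again with no overlap. Mars, which supplies methionine for initiation as well as elongation, read 11.01, 11.09 and 11.11 against 10.48, 10.43 and 10.28, a change of -0.67 (SE 0.0671, limma adjusted p = 3.25e-05). These were the 4 lowest changes among the cytosolic genes, and the lowest among the 11 measured synthetases outside the complex was -0.40.

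Kars, the lysyl-tRNA synthetase of the same complex, went the other way. It read 11.23, 11.27 and 11.26 on the scrambled arrays and 11.86, 11.78 and 11.73 after NANCI shRNA, higher on every array, a change of 0.54 (SE 0.0563, limma adjusted p = 4.73e-05). Qars, for glutamine, and Rars, for arginine, complete the 7 measured members. Qars overlapped between the groups, at 10.76, 10.71 and 10.81 against 10.76, 10.67 and 10.60 (change -0.09, limma adjusted p = 0.449). Rars had a change of 0.16 (limma adjusted p = 0.253), with replicate 3 of the NANCI shRNA group, at 11.86, above the others at 11.52 and 11.53. Members of the complex thus differed among themselves, from -1.06 to 0.54, with a median of -0.67.

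Outside the complex, 6 of 11 measured synthetases fell and 3 rose after NANCI shRNA, with a median of -0.26. At or above the median level 22.7% of named genes were called lower and 22% higher. Nars, for asparagine, read 12.52, 12.48 and 12.57 on the scrambled arrays and 12.12, 12.11 and 12.14 on the NANCI shRNA arrays. The shRNA arrays were all lower, with a change of -0.40 (SE 0.0510, limma adjusted p = 0.000189). Yars, for tyrosine, read 11.52, 11.48 and 11.58 against 11.26, 11.15 and 11.06, a change of -0.37 (limma adjusted p = 0.00129). Tars changed by -0.35 (limma adjusted p = 0.000583), Gars, the glycyl-tRNA synthetase mutated in a form of Charcot-Marie-Tooth neuropathy, by -0.34 (0.000341), and Wars, known for induction by interferon gamma, by -0.32 (0.00379). Cars, for cysteine, had the smallest change of those called lower, at 10.93, 10.94 and 11.01 against 10.76, 10.63 and 10.70. Its groups did not overlap and the change was -0.26 (SE 0.0647, limma adjusted p = 0.0136), but the adjusted p was 0.0567 without replicate 2 of the NANCI shRNA group and 0.0562 without replicate 3 of the scrambled group.

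Hars, for histidine, was the most raised cytosolic synthetase after NANCI shRNA. It read 10.87, 10.87 and 10.71 on the scrambled arrays and 11.44, 11.31 and 11.35 on the shRNA arrays, without overlap, a change of 0.55 (SE 0.0727, limma adjusted p = 0.000239). Farsb, the beta subunit of the phenylalanyl enzyme, rose by 0.28 (limma adjusted p = 0.0113), whereas its partner subunit Farsa changed by 0.10 with overlapping groups (limma adjusted p = 0.428). The difference between those subunits was not tested. Sars, for serine, read 12.19, 12.22 and 12.23 against 12.43, 12.39 and 12.44 and rose by 0.21 (limma adjusted p = 0.017). That call was lost without any of 3 arrays, replicates 1 and 3 of the NANCI shRNA group (0.0518 and 0.0517) and replicate 1 of its scrambled group (0.0603). It was also lost after quantile normalization over all arrays (change 0.15, limma adjusted p = 0.0580) and with all 6 scrambled arrays as 1 control (0.49, 0.0519). Vars, for valine, had overlapping groups and a change of 0.07 (limma adjusted p = 0.615).

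By structural class, the enzymes split unevenly in the NANCI experiment. None of the 9 measured class I synthetases was called higher and 6 were called lower, while 4 of the 8 class II enzymes were called higher and 3 lower. Eprs, which joins an enzyme of each class, was called lower. After LL34 shRNA the calls for class I were 6 higher and 0 lower, and for class II 4 higher and 1 lower. Of the named genes at or above the median level, 22% were called higher and 22.7% lower after NANCI shRNA. After LL34 shRNA those shares were 16.7% and 16.9%. The higher calls of Farsb and Sars, both of class II, were lost with a replicate block (limma adjusted p = 0.0523 and 0.0544). These splits describe the members and were not tested.

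**Figure D2:**
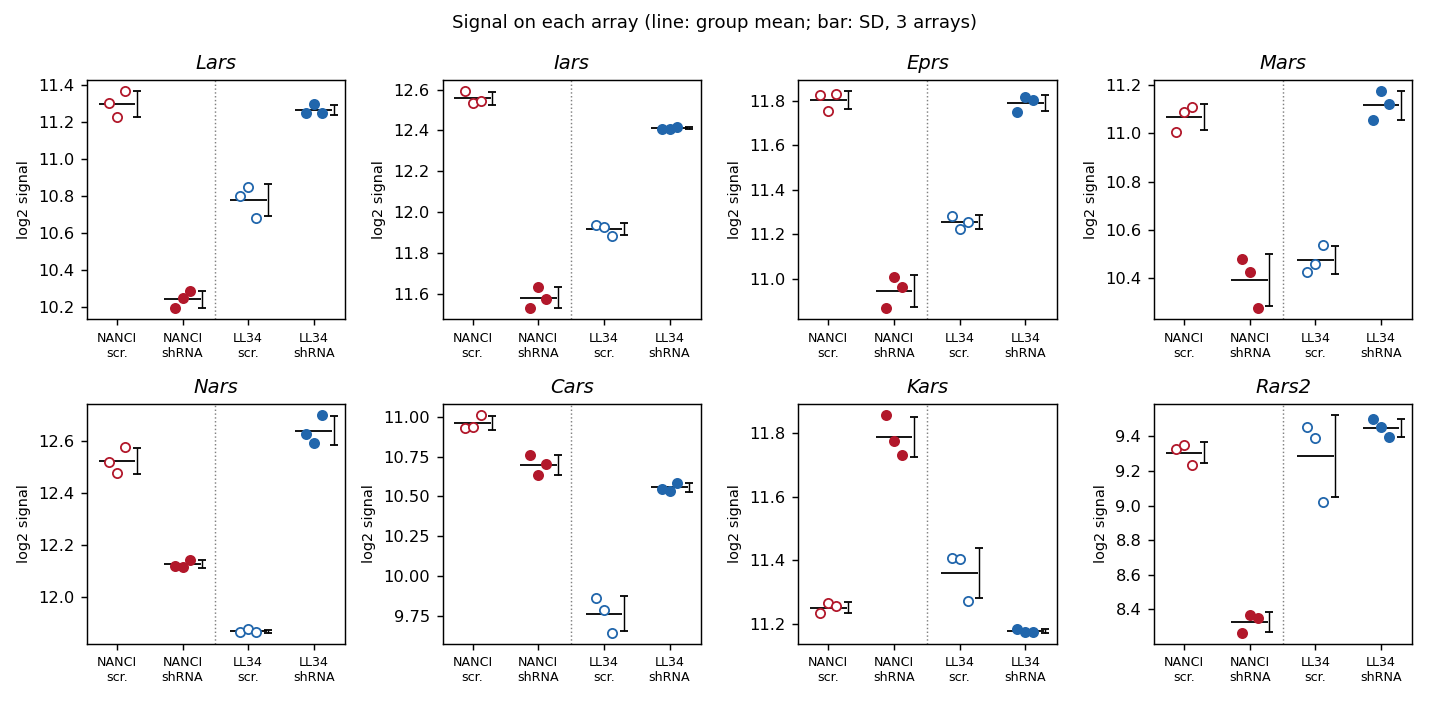
Log2 signal (y axis) on each of the 12 arrays for 8 synthetases, with the NANCI set in red and the LL34 set in blue, scrambled arrays (scr.) open and shRNA arrays filled, group means as lines and SDs as bars. For Lars, Iars, Eprs and Mars the lowest group was NANCI shRNA, and for Nars and Cars it was the LL34 scrambled group. The signals are as deposited, and the sets look separately normalized. After quantile normalization over the 12 arrays the same groups were lowest for these genes.

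After LL34 shRNA 4 of the 7 measured members of the complex were called higher and 1 lower, with a median of 0.49. The lower call was Kars, at the edge of the threshold. Of the 11 free enzymes 7 were called higher and 0 lower, with a median of 0.50. At or above the median level 16.7% of named genes were called higher and 16.9% lower. Cars had the highest change. It read 9.86, 9.78 and 9.64 on the scrambled arrays and 10.55, 10.54 and 10.59 on the LL34 shRNA arrays, far apart, for a change of 0.80 (SE 0.0647, limma adjusted p = 1.86e-05). Nars read 11.86, 11.87 and 11.86 against 12.63, 12.59 and 12.70, a change of 0.77 (SE 0.0510, limma adjusted p = 4.99e-06). Yars read 10.62, 10.70 and 10.69 against 11.40, 11.35 and 11.45. Its 3 shRNA arrays were all higher, by 0.73 (SE 0.0624, limma adjusted p = 2.40e-05). Sars, the single synthetase called higher in both experiments, read 11.72, 11.63 and 11.58 against 12.39, 12.34 and 12.32, a change of 0.71 (SE 0.0538, limma adjusted p = 1.12e-05).

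Within the complex, the genes that had fallen after NANCI shRNA rose after LL34 shRNA, by 0.49 to 0.64. Mars read 10.43, 10.46 and 10.54 on the scrambled arrays and 11.05, 11.17 and 11.12 on the LL34 shRNA arrays, a change of 0.64 (SE 0.0671, limma adjusted p = 9.44e-05). Eprs read 11.28, 11.22 and 11.26 against 11.75, 11.82 and 11.80, a change of 0.54 (limma adjusted p = 8.12e-05). Iars read 11.94, 11.93 and 11.88 against 12.41, 12.41 and 12.42, a change of 0.50 (limma adjusted p = 7.00e-05). None of these groups overlapped. Lars read 10.80, 10.85 and 10.68 against 11.25, 11.30 and 11.25, a change of 0.49 (SE 0.0616, limma adjusted p = 0.000329). Wars rose by 0.58 (limma adjusted p = 0.000133), Gars by 0.50 (5.21e-05) and Tars by 0.35 (0.000857).

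Of the 8 cytosolic genes not called lower after NANCI shRNA, Sars alone was called higher after LL34 shRNA. Kars read 11.41, 11.41 and 11.27 on the scrambled arrays and 11.19, 11.18 and 11.17 on the LL34 shRNA arrays, a change of -0.18 at the edge of the threshold (limma adjusted p = 0.0491). That call was lost without any array of the LL34 shRNA group (0.118 to 0.130), without replicate 1 or 2 of the LL34 scrambled group (0.132 and 0.154), and also without several NANCI arrays. Hars had a change of -0.19 (limma adjusted p = 0.108), and it passed at 0.0412 without replicate 3 of the LL34 scrambled group. Qars had a change of -0.18 (limma adjusted p = 0.0739, and 0.0415 without the same array). Rars, Farsa, Farsb and Vars had changes of 0.20, 0.09, 0.09 and 0.08, with limma adjusted p from 0.165 to 0.564.

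The sets shared no control arrays, so the changes could be set against each other and their difference tested. The NANCI change minus the LL34 change passed the test for 13 of 18 cytosolic genes, 11 lower and 2 higher, against 24.4% of all named genes (12.3% lower and 12% higher). All 10 genes with opposite changes were among them, from -1.55 for Lars to -0.70 for Tars, and the largest limma adjusted p was 6.55e-05. Since they were picked by opposite calls on the same arrays, passing this test was largely fixed by that choice. Sars was the remaining lower call, having risen less after NANCI than after LL34 shRNA, with a difference of -0.50 (limma adjusted p = 0.000747). Hars at 0.74 and Kars at 0.72 made up the higher calls (limma adjusted p = 0.00042 and 9.12e-05). Over the 18 cytosolic genes the pair of changes had a Pearson correlation of -0.631 and a Spearman correlation of -0.540, and over the 16 mitochondrial genes -0.365 and -0.335. The points share arrays, so these values describe the genes measured.

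**Figure D3:**
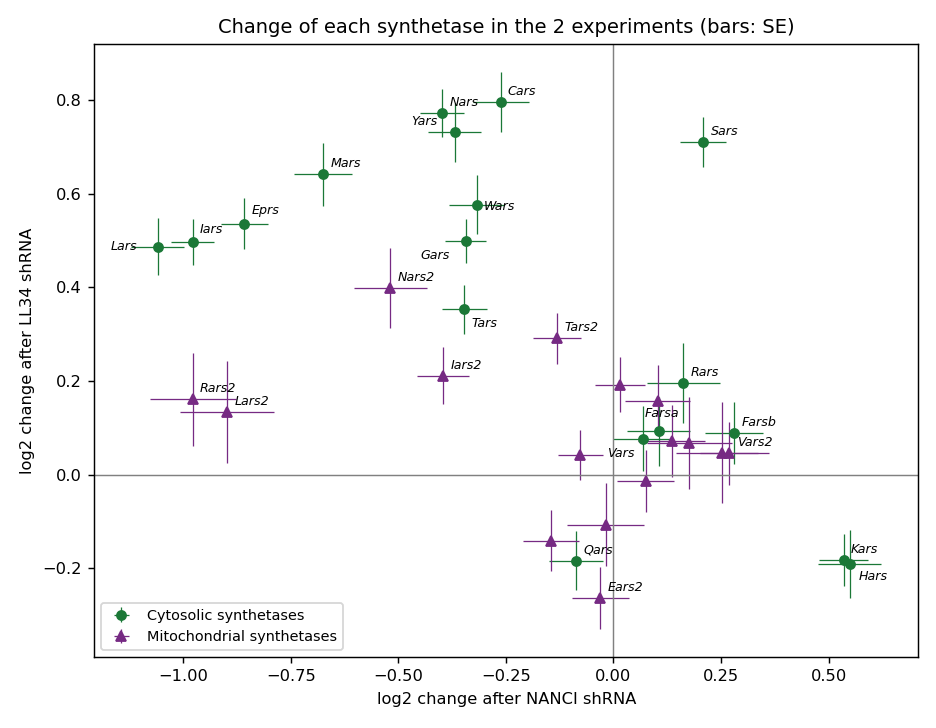
Log2 change after NANCI shRNA (x axis) against log2 change after LL34 shRNA (y axis) for the 18 cytosolic (green circles) and 16 mitochondrial (purple triangles) synthetases, with the SE of each. The 10 genes with opposite changes lie in the upper left, Sars alone in the far upper right, and Kars and Hars in the lower right.

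The scrambled groups themselves differed in these genes. The LL34 scrambled group was lower than the NANCI scrambled group for 14 of 18 cytosolic genes and higher for 2, where 60.4% of all named genes were called, 50.5% lower and 9.9% higher, on sets whose array medians differ. Of all calls in that comparison 16.4% were higher as deposited, 45.7% after quantile normalization over the 12 arrays and 65.1% after centring each array on its median. The cytosolic counts under those scalings were 13 lower and 4 higher in both. Between the shRNA groups, LL34 was higher than NANCI for 9 cytosolic genes and lower for 5, where 14.1% of all named genes were higher and 55.2% lower. After quantile normalization, and relative to the NANCI scrambled group, the median of the 10 genes with opposite changes was -0.58 in the LL34 scrambled group, -0.42 in the NANCI shRNA group and -0.04 in the LL34 shRNA group. For all named genes those medians were -0.02, -0.0041 and -0.08. The 10 genes were chosen by their changes within each set. A NANCI shRNA median below its scrambled group, and an LL34 scrambled median below the LL34 shRNA one, follow from that choice.

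By individual gene, Eprs, Iars, Lars and Mars were lowest in the NANCI shRNA group on that scale, and the other 6 were lowest in the LL34 scrambled group. Cars was the extreme, at -1.14 in the LL34 scrambled group and -0.29 in the NANCI shRNA group. When all 6 scrambled arrays were instead taken as 1 control group, Eprs, Iars and Lars were the 3 cytosolic genes still called lower after NANCI shRNA, and 0 were called higher after LL34 shRNA. All-gene medians were then 0.13 and -0.14, and with quantile normalization added the counts were 3 lower and 1 higher, the latter being Sars. Whether the scrambled groups differed by virus, culture or array processing cannot be told apart from these data.

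**Figure D4:**
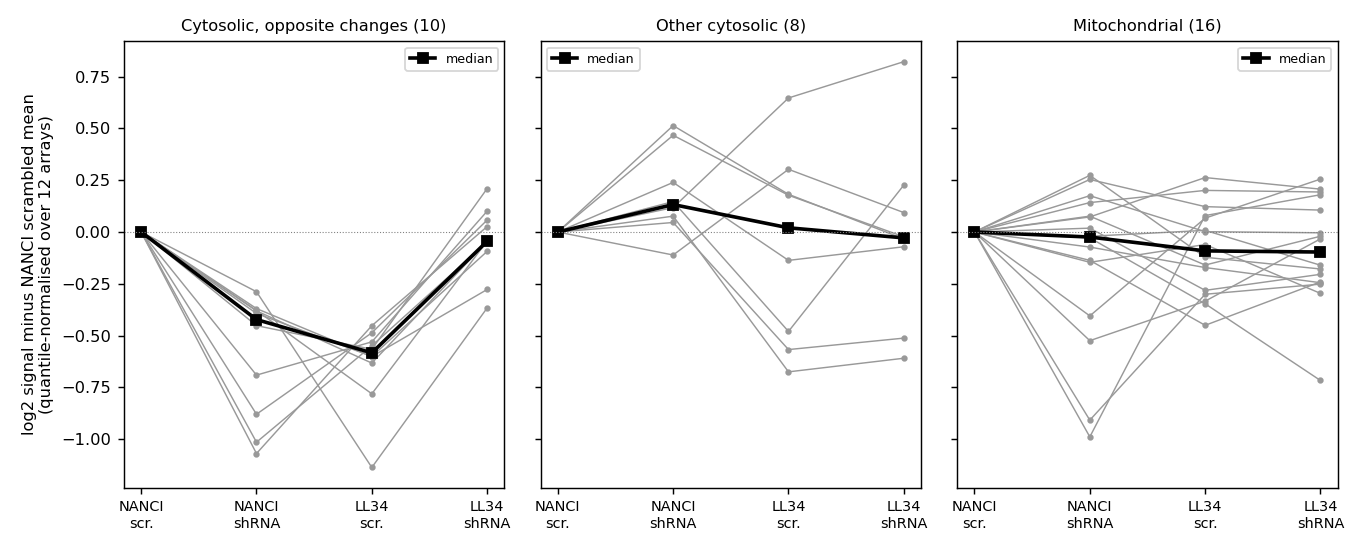
Quantile-normalised log2 signal minus the mean of the NANCI scrambled arrays (y axis) in the 4 groups (x axis, scr. for scrambled), 1 grey line per gene and the median in black. The genes of the left panel were chosen by their changes within each set. Their median goes to -0.42 in the NANCI shRNA group, -0.58 in the LL34 scrambled group and -0.04 in the LL34 shRNA group. The mitochondrial medians in those groups are -0.02, -0.09 and -0.10.

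Rars2, Lars2, Nars2 and Iars2 were the mitochondrial synthetases that fell after NANCI shRNA, with changes from -0.98 to -0.40. Rars2, the mitochondrial arginyl enzyme, read 9.33, 9.35 and 9.24 on the scrambled arrays and 8.26, 8.37 and 8.35 on the NANCI shRNA arrays. The groups were far apart, with a change of -0.98 (SE 0.0995, limma adjusted p = 3.77e-05). Lars2, for leucine, read 9.06, 9.10 and 9.22 against 8.20, 8.17 and 8.32, a change of -0.90 (SE 0.110, limma adjusted p = 0.000133). Both groups of arrays were separate for this gene too. Nars2, for asparagine, read 9.02, 8.78 and 9.04 against 8.40, 8.44 and 8.44, a change of -0.52 (SE 0.0851, limma adjusted p = 0.00105). Its second, dimmer probe set changed by -0.09 with overlapping arrays (limma adjusted p = 0.488), so its probe sets disagree in size. Iars2, for isoleucine, read 10.13, 10.14 and 10.11 against 9.67, 9.74 and 9.77, a change of -0.40 (limma adjusted p = 0.000683). With all 6 scrambled arrays as 1 control, Rars2 (-0.97), Lars2 (-0.69) and Iars2 (-0.39) were still called lower, and Nars2 was not (-0.28, limma adjusted p = 0.205).

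Vars2, for valine, was the single mitochondrial gene called higher after NANCI shRNA, by 0.27 (limma adjusted p = 0.0147). Its arrays read 8.80, 8.96 and 8.79 against 9.19, 9.11 and 9.06, without overlap. The call was lost without replicate 1 of the NANCI shRNA group (0.0610) or replicate 1 or 3 of the scrambled group (0.0590 and 0.0613). The other 11 ran from -0.14 for Wars2 to 0.25 for Hars2 and did not pass. Hars2 had a limma adjusted p of 0.146, and 0.0304 without replicate 3 of the LL34 scrambled group. By array, 4 of the 16 mitochondrial genes lay wholly above their scrambled group and 7 wholly below, where 20.5% and 20% of all named genes did.

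After LL34 shRNA the mitochondrial changes were smaller, from -0.26 to 0.40. Nars2 read 8.55, 8.58 and 8.30 on the scrambled arrays and 8.87, 8.87 and 8.89 on the shRNA arrays, higher throughout, by 0.40 (SE 0.0851, limma adjusted p = 0.00814), with 0.14 at its second probe set (0.214). Tars2, for threonine, read 8.71, 8.68 and 8.64 against 8.99, 8.96 and 8.94, a change of 0.29 (SE 0.0552, limma adjusted p = 0.00411). Tars2 had a change of -0.13 after NANCI shRNA that did not pass (0.139). Iars2 rose by 0.21 (limma adjusted p = 0.0372) and Pars2, for proline, by 0.19 (0.0473), and leaving out 1 array ended the call for Iars2 in 7 of 12 cases and for Pars2 in 11 of 12. Ears2, which charges glutamate and also glutamine tRNA for later amidation, fell by 0.26 on the log2 scale (limma adjusted p = 0.0192), a call lost without replicate 1 or 3 of the LL34 shRNA group (0.0578 and 0.0708).

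Rars2 and Lars2 had LL34 changes of 0.16 and 0.13 that did not pass (limma adjusted p = 0.361 and 0.512). Replicate 3 of the LL34 scrambled group was the low array for each, at 9.02 beside 9.46 and 9.39 for Rars2 and at 8.41 beside 8.84 and 8.88 for Lars2. The NANCI change minus the LL34 change passed for 5 of the 16 mitochondrial genes, all lower. They were Rars2 (-1.14), Lars2 (-1.03), Nars2 (-0.92), Iars2 (-0.61) and Tars2 (-0.42). That test passed for 24.4% of all named genes, 12.3% lower, and for 40.7% of those at or above the median level, 20.8% lower. Iars2 and Nars2 were the mitochondrial genes with the same opposite calls as the 10 cytosolic ones, calls that 2.9% of all named genes had. The remaining 8, Aars2, Cars2, Fars2, Hars2, Mars2, Sars2, Wars2 and Yars2, passed in neither experiment.

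For 12 amino acids the cytosolic and the mitochondrial enzyme come from separate measured genes with matching names. After NANCI shRNA the cytosolic change was the lower of the pair in 8 and the higher in 4, with a median difference of -0.19. Mars and Mars2 were furthest apart in that direction, at -0.85, and Rars and Rars2 in the other, at 1.14. For leucine both enzymes fell, with changes of -1.06 and -0.90, and for asparagine the changes were -0.40 for the cytosolic and -0.52 for the mitochondrial enzyme. After LL34 shRNA the cytosolic change was the higher in 11 pairs, with a median difference of 0.36, and the lower for histidine alone. These differences were described and not tested, and with all 6 scrambled arrays as 1 control the NANCI median was 0.03.

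**Figure D5:**
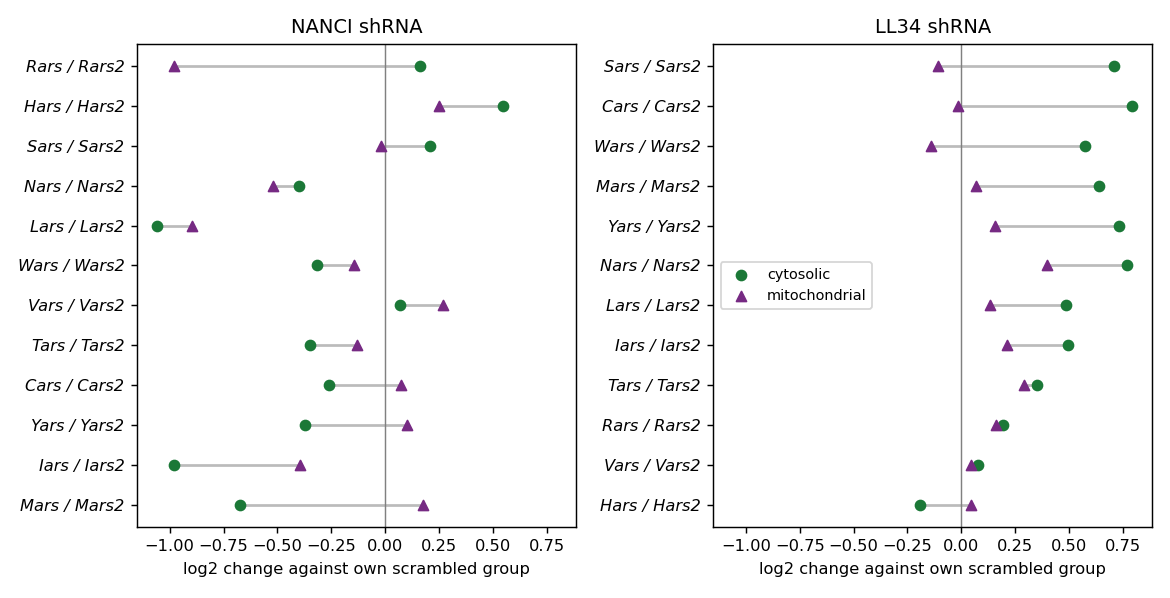
Log2 change against the own scrambled group (x axis) of the cytosolic (green circle) and mitochondrial (purple triangle) enzyme for 12 amino acids (y axis), ordered by their difference in each experiment. In the right panel 11 circles lie right of their triangles, and in the left panel 8 lie left of theirs.

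Genes that work with the synthetases were called in both directions after NANCI shRNA. Of 16 listed tRNA charging partners 12 were measured, 4 called higher and 2 lower after NANCI shRNA, and 6 higher and 0 lower after LL34 shRNA. Among named genes at or above the median level 22% were called higher and 22.7% lower after NANCI shRNA, near the share of partners. After LL34 shRNA those shares were 16.7% and 16.9%. The measured scaffold genes of the multisynthetase complex rose after NANCI shRNA while Eprs, Iars, Lars and Mars fell, Aimp1 by 0.58 (limma adjusted p = 0.000120) and Eef1e1 by 0.42 (0.000896). A second Aimp1 probe set changed by 0.11 and did not pass (0.294). After LL34 shRNA Aimp1 changed by 0.01 and Eef1e1 by -0.09, and neither passed. Xpot, which exports tRNA from the nucleus, followed the 10 genes, with -0.29 (limma adjusted p = 0.00326) and 0.77 (8.71e-06). Gatc, a subunit of the mitochondrial amidotransferase that completes glutamine tRNA, did so too, with -0.72 (limma adjusted p = 1.16e-05) and 0.32 (0.0048). Dtd2, which removes wrongly charged residues, rose in both, by 0.43 and 0.27, and Pstk, of the selenocysteine route, rose by 0.50 after LL34 shRNA.

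The counts of translation factor genes called can be read against all named genes at or above the median level, of which 44.7% were called after NANCI shRNA and 33.6% after LL34 shRNA. Of 6 cytosolic elongation factor genes, Eef1b2 and Eef1d rose after NANCI shRNA, by 0.32 and 0.26, and Eef1d fell by 0.28 after LL34 shRNA. Of 15 mitochondrial translation genes 4 rose and 2 fell after NANCI shRNA, a share near that background. The lower ones were Mrrf, the ribosome recycling factor, at -0.73, and Elac2, which trims tRNA 3′ ends, at -0.46. Trmt10c, a subunit of mitochondrial RNase P, rose by 0.55 and the elongation factor Gfm1 by 0.47. After LL34 shRNA the initiation factor Mtif3 rose by 0.43 and the elongation factor Tufm by 0.26.

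The list of ATF4 amino acid response genes went mostly the way of the 10 synthetases. Of 24 measured genes 16 fell and 5 rose after NANCI shRNA, with a median of -0.55. After LL34 shRNA 20 rose and 2 fell, with a median of 1.05. Among all named genes 13.6% were called lower and 13.2% higher after NANCI shRNA, and 9.77% higher and 10.3% lower after LL34 shRNA. For named genes at or above the median level those shares were 22.7% and 22%, and 16.7% and 16.9%. Aldh1l2, a mitochondrial folate enzyme, changed by -2.50 (limma adjusted p = 1.05e-07) and 2.11 (4.09e-07). Vldlr, a lipoprotein receptor, changed by -2.25 and 1.74, Psph, the last enzyme of serine synthesis, by -1.44 and 1.33, Nupr1, a stress-induced regulator, by -2.25 and 1.38, and Trib3, a pseudokinase that feeds back on ATF4, by -1.05 and 1.73. Members that rose after NANCI shRNA were Ddit4 (1.23), Sesn2 (0.73), Ddit3 (0.39), Cth (0.39) and Cebpb (0.31), of which Ddit4 and Sesn2 restrain mTORC1. As with the synthetases, the LL34 scrambled group was lower than the NANCI scrambled group for 23 of the 24, where 50.5% of all named genes were. The median was -0.80 relative to all genes, and what part the LL34 scrambled group has in the LL34 changes was not tested.

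Amino acid transporters went mostly the same ways. Of 10 measured genes 7 were lower and 0 higher after NANCI shRNA, beside 13.6% and 13.2% of all named genes. After LL34 shRNA 6 were higher and 2 lower, beside 9.77% and 10.3% of all named genes. At or above the median level, 22.7% of named genes were lower and 22% higher after NANCI shRNA. After LL34 shRNA 16.7% of them were higher and 16.9% lower. The cystine carrier Slc7a11 changed by -2.39 and 1.68, and its second probe set by -0.94 and 0.28, of which the last did not pass (limma adjusted p = 0.112). Slc7a1, for cationic amino acids, changed by -0.88 and 1.05, Slc1a4, for neutral ones, by -0.79 and 0.93, and Slc7a5, for large neutral ones, by -0.70 and 0.77. Of 14 measured regulators of the integrated stress response 3 rose and 4 fell after NANCI shRNA, near the background share of 44.7%, and 4 rose and 0 fell after LL34 shRNA, where that share was 33.6%.

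Atf4 itself read 10.35, 10.32 and 10.35 on the NANCI scrambled arrays and 10.16, 10.11 and 10.02 on the shRNA arrays, a change of -0.24 (limma adjusted p = 0.00949). In the LL34 set it read 10.07, 9.97 and 10.05 against 10.65, 10.57 and 10.61, higher by 0.58 (limma adjusted p = 5.47e-05). Both pairs of groups were separate, in the same directions as the 10 synthetases. ATF4 is controlled chiefly at translation, so its RNA is an incomplete measure of the protein. Subunits of eIF2B, the exchange factor that eIF2 alpha phosphorylation inhibits, rose after NANCI shRNA for Eif2b2 (0.53) and Eif2b3 (0.42), and after LL34 shRNA for Eif2b4 (0.52) and Eif2b1 (0.38). Eif2ak3, the kinase PERK, fell by 0.25 on the log2 scale after NANCI shRNA, and Ppp1r15a, which directs dephosphorylation of eIF2 alpha, rose by 0.44 after LL34 shRNA.

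Over the 12 arrays, with the mean of each set of 6 subtracted, the genes outside the family whose pattern was most like the mean of the cytosolic synthetases were Chchd10 (Pearson r = 0.995), Chac1 (0.994), Trib3 (0.994), Srsf4 (0.993) and Steap2 (0.990). They are named for likeness in 4 groups on 12 arrays, and their changes were -1.18, -1.18, -1.05, -0.33 and -0.48 after NANCI shRNA and 1.92, 1.71, 1.73, 0.55 and 0.76 after LL34 shRNA. Chac1, which degrades glutathione, and Trib3 were on the ATF4 list. Atf4 had r = 0.978 and rank 32 of 22146 genes.

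Some cell type markers were called in each experiment. For comparison, 26.8% of all named genes were called after NANCI shRNA and 20% after LL34 shRNA. The lists are short, and their counts were not tested against those shares. Of 6 epithelial genes, Cdh1 (-1.56) and Krt8 (-0.43) were called lower after NANCI shRNA, and 2 were lower and 1 higher after LL34 shRNA. The mean of the list was 8.71 to 8.78 on the NANCI scrambled arrays, 8.51 to 8.53 on the NANCI shRNA arrays, 8.64 to 8.73 on the LL34 scrambled arrays and 8.29 to 8.36 on the LL34 shRNA arrays. The other 4 epithelial genes had changes from 0.10 to 0.21 after NANCI shRNA that did not pass, and the median over the 6 was 0.11, of the opposite sign to the shift of the mean. Of 9 alveolar type 2 genes 2 were called lower after NANCI shRNA, Abca3 (-1.24) and Nkx2-1, with list means from 7.62 to 7.71 against 7.96 to 8.02. After LL34 shRNA 1 of the 9 was called higher and 2 lower, with means from 7.50 to 7.62 against 7.64 to 7.72. Fibroblast genes had 1 of 6 called lower after NANCI shRNA (Dcn, -0.91), endothelial genes 1 of 6 (Tek, -1.05) and leukocyte genes 1 of 5 called higher (Cd68, 0.88). Their list means on the NANCI shRNA arrays were 7.50 to 7.57, 6.52 to 6.59 and 6.35 to 6.47, against 7.65 to 7.82, 6.71 to 6.80 and 6.19 to 6.36 on the scrambled arrays. After LL34 shRNA those lists had 0, 1 and 0 calls. Their part in the synthetase changes was not tested.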

How the data were processed

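The authors deposited 1 log2 signal per probe set and array, made with oligo, RMA (background correction, quantile normalization and summary) and limma, as named per the submitters' processing notes. Versions and order of these tools are not stated in any source used here. The platform's annotation gave 23521 of 41345 probe sets 1 symbol, 1814 several and 16010 none, and only the first kind was named. A gene was represented by whichever of its probe sets had the highest mean signal, and Mars was listed there as Mars1. A mouse gene table and promoters came from RefSeq, assembly GRCm38.p6.

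limma 3.58.1 in R 4.3.3, with the package data.table (1.17.8), was fitted to all 12 arrays with 4 group means, 8 residual and 2.84 prior degrees of freedom, so that the groups share 1 estimate of spread. Benjamini-Hochberg adjustment ran over all 41345 probe sets with a threshold of 0.05, and changes are shRNA minus scrambled with the SE of the fit. The fit was tested on simulated data. With 3 arrays per group, that number limits the precision. The comparisons were each shRNA group against its own scrambled group, the NANCI change minus the LL34 change, and the scrambled and the shRNA groups across sets.

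Members and lists were chosen with earlier results of these data known, so no list was given a test. All members were named, and in each pathway list up to 4 genes with the smallest p per experiment, besides Atf4, Sfta3-ps and the 5 genes most like the cytosolic mean. Ddit4, Sesn2, Ddit3, Cth, Cebpb, the second probe sets and the marker genes were named after their values were seen. Alternatives covered each set alone, scaling, array weights, dim probe sets, the mean of a gene's probe sets, an intensity trend, 1 control group, a replicate block and leaving out each array.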

Additional observations from a re-analysis of the deposited data

Results flagged for a closer look

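For 18 of the 34 measured genes the change after NANCI shRNA differed from the change after LL34 shRNA by the test of that difference in limma. The same test passed for 24.4% of all named genes and for 40.7% of those at or above the median level. For genes with opposite calls in the experiments, passing was largely fixed by those calls. Values are the NANCI change minus the LL34 change, on the log2 scale, with 3 arrays per group. Among enzymes of the multisynthetase complex the difference was -1.55 for Lars, -1.47 for Iars, -1.39 for Eprs, -1.32 for Mars and 0.72 for Kars. Among free cytosolic enzymes it was -1.17 for Nars, -1.10 for Yars, -1.06 for Cars, -0.89 for Wars, -0.84 for Gars, -0.70 for Tars, -0.50 for Sars and 0.74 for Hars. Among mitochondrial enzymes it was -1.14 for Rars2, -1.03 for Lars2, -0.92 for Nars2, -0.61 for Iars2 and -0.42 for Tars2. The limma adjusted p ran from 4.94e-07 for Iars to 0.00273 for Tars2.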

How the results depend on the processing

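The values rest on 3 arrays per group, on sets that look separately normalized, and on scrambled groups that differ; where a setting moved a value, the cause was not tested. Counts are of genes called, N stands for NANCI shRNA and L for LL34 shRNA, each against scrambled. With each set of 6 fitted alone, L cytosolic lower was 0 and L mitochondrial higher 2. After quantile normalization the N cytosolic median was -0.33, N cytosolic higher 3 (Sars lost), N mitochondrial higher 2, L cytosolic lower 3, L mitochondrial higher 2 and lower 2 with a median of -0.0066, the mitochondrial difference 1 higher with a median of 0.045, and the enzyme pair medians -0.23 and 0.45. Centring arrays gave an L cytosolic median of 0.46, L mitochondrial higher 2, and mitochondrial medians of 0.0847 between scrambled and 0.10 between shRNA groups. Array weights gave L cytosolic lower 3 with a median of 0.46, the mitochondrial difference 1 higher and an L pair median of 0.43. Leaving out dim probe sets, or an intensity trend, gave L cytosolic lower 2, and the mean of a gene's probe sets an L pair median of 0.43.

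Taking all 6 scrambled arrays as 1 control gave N cytosolic lower 3 with a median of 0.0148, an N mitochondrial median of 0.0907, L cytosolic higher 0 and lower 0 with a median of 0.185, L mitochondrial higher 0 with a median of 0.0113, and pair medians of 0.0265 and 0.27. In that setting Cars (0.34), Gars (0.0033), Wars (0.0263) and Yars (0.0588) turned positive after NANCI shRNA, and Pars2 (-0.0184) negative after LL34 shRNA. With quantile normalization added, chosen after seeing the data, N cytosolic lower was 3 with a median of -0.0666, the N mitochondrial median 0.0273, L cytosolic higher 1 and lower 0 with a median of 0.22, L mitochondrial higher 1 and lower 2 with a median of -0.0101, and the pair medians 0.0234 and 0.32. Cars (0.28) and Yars (0.0115) were then positive after NANCI shRNA, and Pars2 (-0.0634) and Tars2 (-0.0155) negative after LL34 shRNA.

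Same-numbered arrays did not deviate together over all probe sets (correlations from -0.125 to 0.0451). The labels do not say whether equal numbers were infected or run together, and these correlations cannot tell. A replicate block gave N cytosolic higher 2 and lower 9, with the calls of Cars (adjusted p 0.0549), Sars (0.0544) and Farsb (0.0523) lost, L cytosolic lower 0, L mitochondrial higher 2 and lower 0, and all probe sets called went from 8228 to 6906 and from 6766 to 5257. The block gives no value between sets, and each set alone or 1 control gives none for the differences.

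Without 1 array at a time, N cytosolic lower was 9 to 10 and higher 3 to 4 (median -0.31 to -0.25), N mitochondrial lower 4 and higher 0 to 2 (median -0.0632 to -0.0104). L cytosolic higher was 11 to 12 and lower 0 to 3 (median 0.46 to 0.50), L mitochondrial higher 2 to 3 and lower 0 to 1 (median 0.0326 to 0.146). The difference was called lower for 11 cytosolic and 5 mitochondrial genes throughout and higher for 2 and 0 to 1, with a mitochondrial median from -0.07 to 0.0025. Pair medians were -0.20 to -0.16 and 0.32 to 0.46.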
